A study of Mus musculus with 4 samples.

Results

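The Sox genes encode transcription factors that bind DNA through a high-mobility-group domain, and 8 of the 31053 genes of the matrix are described here because they mark neuronal and glial states: Sox2, Sox4, Sox5, Sox6, Sox8, Sox9, Sox10 and Sox11. Rows were matched by symbol alone, and a further 11 Sox genes of the matrix served only for comparison. Single-nucleus RNA sequencing had been carried out on the superior colliculus, the midbrain region that turns visual input into orienting movements, of C57BL/6J mice at embryonic day 19 (E19) and postnatal days 4, 8 and 21 (P4, P8, P21). No other genotype and no treatment was named in the labels. Each stage had 1 library made from tissue pooled over several animals. The 4 libraries held 2585, 2386, 2504 and 2249 nuclei in stage order and 9724 together. The authors had sorted the nuclei into 9 classes and 35 subtypes, among them 13 excitatory (EN1 to EN13) and 12 inhibitory (IN1 to IN12) neuron subtypes.

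Sox factors fall into families with distinct textbook roles. The SoxC genes Sox4 and Sox11 are active in newly born neurons and in other immature cells. The SoxD genes Sox5 and Sox6 lack an activation domain of their own and work with other Sox proteins, which they help or hinder, in neuron subtypes and in oligodendrocyte precursors (OPCs). Sox2, of the SoxB1 family, maintains neural stem and progenitor cells. Among the SoxE genes, Sox9 is known from radial glia and astrocytes, and Sox10 and Sox8 from the oligodendrocyte lineage, in which Sox10 drives myelin genes.

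A level below is the number of unique molecular identifiers (UMIs, 1 per captured RNA molecule) of a gene in every 1000000 UMIs of a group of nuclei (CPM), with an exact 95% Poisson interval. Ratios are log2 values after adding 5 CPM to both sides, which understates changes of low genes, and a difference is counted when it is at least 2-fold and the higher side has at least 20 CPM. A gene below 20 CPM on 1 side passes through the other side alone, which favours a difference in that direction. With 1 library per stage there is no replicate check and no test was made. Intervals cover counting error only, so every difference between stages is a difference between 2 libraries. Because genes differ in length, levels are compared within a gene and not between genes. Classes and subtypes were named by the authors from these same nuclei, so differences between them are descriptions.

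Library totals ran from 19277512 UMIs at E19 to 31325079 at P21, with median UMIs per nucleus between 6828 and 11745. Class names were checked against defining markers. The 5 excitatory markers summed highest in inhibitory neurons at all stages (2126 to 3551 CPM, against 2014 to 3022 CPM in excitatory neurons), and 3 of them, Snap25, Rbfox3 and Syt1, are on the inhibitory list too. The excitatory marker Slc17a6, the vesicular glutamate transporter, was 286, 241, 182 and 176 CPM in excitatory and 46.3, 38.8, 19.8 and 8.32 CPM in inhibitory neurons. Gad2, which makes the inhibitory transmitter GABA, was 23.8, 20.6, 12.1 and 16.8 CPM in excitatory and 557, 490, 444 and 366 CPM in inhibitory neurons. Myelin, vascular leptomeningeal, microglial, endothelial and dividing markers summed highest in the class they name at all stages, and astrocyte markers at P8 and P21 only, since vascular leptomeningeal cells exceeded astrocytes at E19 and P4. OPC markers summed highest in the oligodendrocyte lineage up to P8 and in dividing nuclei at P21 (8720 CPM, against 1426 CPM in the lineage). Committed oligodendrocyte markers did so in the lineage at P4 and P8, but in epithelial nuclei at E19 and endothelial nuclei at P21 (1071 CPM, against 930 CPM in the lineage). Within the lineage at P21, OPC markers were 9016 CPM in OPCs and 861 CPM in committed nuclei, and committed markers 1035 and 3428 CPM. The epithelial class lacked its markers: of 4 (Ttr, Foxj1, Ccdc153 and Krt18) 0 were detected at E19 and at most 2 at any other stage. One P21 nucleus of subtype EN11 had 244143 UMIs, against 87756 in the next largest, and carried 316 UMIs of the myelin gene Mbp. It held 17 of the 41 Sox2 UMIs, 8 of the 16 Sox10 UMIs and 10 of the 443 Sox11 UMIs of all P21 excitatory nuclei. No count of genes or subtypes given below moved by over 1.5 times without it. Libraries shared 9 barcode sequences, each present in 2 of them.

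Sox4 and Sox11 both have a single merged exon in the annotation (GENCODE M21 on GRCm38, the mm10 build). Sox11 (ENSMUSG00000063632) lies at chr12:27334264-27342574 and Sox4 (ENSMUSG00000076431) at chr13:28948919-28953713, both on the minus strand. The lincRNA Gm26735 overlaps Sox4 on the opposite strand and had 470 UMIs of its own. Since the pair moved together across stages, the 250 bases before each RefSeq start are shown (GRCm38.p6, minus strand, 5′ to 3′, chr13:28953700-28953949 for Sox4 and chr12:27342719-27342968 for Sox11). Capitals mark matches to CCAAT (or ATTGG on the other strand) and GGGCGG (or CCGCCC), the letters of the CCAAT box and the GC box.
Sox4: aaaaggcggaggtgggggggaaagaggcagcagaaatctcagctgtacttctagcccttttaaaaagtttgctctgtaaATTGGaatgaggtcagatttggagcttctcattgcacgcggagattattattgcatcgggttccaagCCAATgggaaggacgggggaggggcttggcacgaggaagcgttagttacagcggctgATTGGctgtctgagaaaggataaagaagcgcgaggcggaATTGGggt
Sox11: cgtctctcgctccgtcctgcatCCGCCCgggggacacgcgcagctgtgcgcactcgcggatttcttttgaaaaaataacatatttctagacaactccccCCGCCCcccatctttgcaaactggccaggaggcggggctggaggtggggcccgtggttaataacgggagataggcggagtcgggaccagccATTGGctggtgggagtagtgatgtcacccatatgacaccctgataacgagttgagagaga
Counted back from the start, the first bases of the 4 CCAAT-box matches of Sox4 stand at -171, -104, -47 and -8. Sox11 has 1 such match at -60 and 2 GC-box matches at -228 and -151. Of 32851 promoter windows of this length, 33.8% hold a CCAAT-box match and 32.7% a GC-box match. Neither window holds ACAAAG or AACAAT, letters of the Sox binding motif, on either strand, which 16.5 and 9.42% of all windows do. That says only that these letters are not in these windows. RefSeq entries were found for 6 of the 8 genes, not for Sox9 and Sox10.

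Of all nuclei, 55.2% had a Sox11 UMI and 42.2% a Sox4 UMI (50.8% had one of Sox5), and both SoxC genes were lower at P21 than at E19 wherever neurons or glia were measured. In excitatory neurons Sox11 stood at 200 CPM (E19), 109 (P4), 96.4 (P8) and 30.3 (P21). Inhibitory neurons gave 269, 135, 134 and 50.9 CPM. Within both classes the E19 level was the highest and the P21 level the lowest, with intervals that did not overlap (at P21 27.6 to 33.3 and 46.8 to 55.2 CPM). The E19 to P21 log2 ratio of Sox11 was -2.54 (interval -2.67 to -2.41) in excitatory and -2.29 (-2.42 to -2.17) in inhibitory neurons.

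Sox4 differed more between stages than Sox11 on the ratio scale. Its levels were 127, 60.8, 39.6 and 9.17 CPM in excitatory neurons and 171, 94.6, 77.6 and 15.0 CPM in inhibitory neurons at the 4 stages in order. The E19 level was thus 13.8 times the P21 level in excitatory and 11.4 times in inhibitory neurons, against 6.59 and 5.29 times for Sox11. Of the 8 Sox genes, 4 reached 20 CPM in excitatory neurons and 2 of them, Sox4 and Sox11, were at least 2-fold lower at P21. Of all 7650 genes measured at that level, 10.7% were. In inhibitory neurons 3 of 5 were lower (Sox2 with the SoxC pair) beside 11.3% of all genes. Sox2 passed the filter there through E19 alone (25.0 CPM, against 7.87 CPM at P21). Sox4 did so in both neuron classes, with 9.17 and 15.0 CPM at P21.

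The step from P8 to P21 was past 2-fold for both genes in both neuron classes. From E19 to P4 Sox4 reached it narrowly in excitatory neurons, with an interval of the log2 ratio from -1.12 to -0.89. Between P4 and P8 neither gene passed it in neurons.

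**Figure D1:**
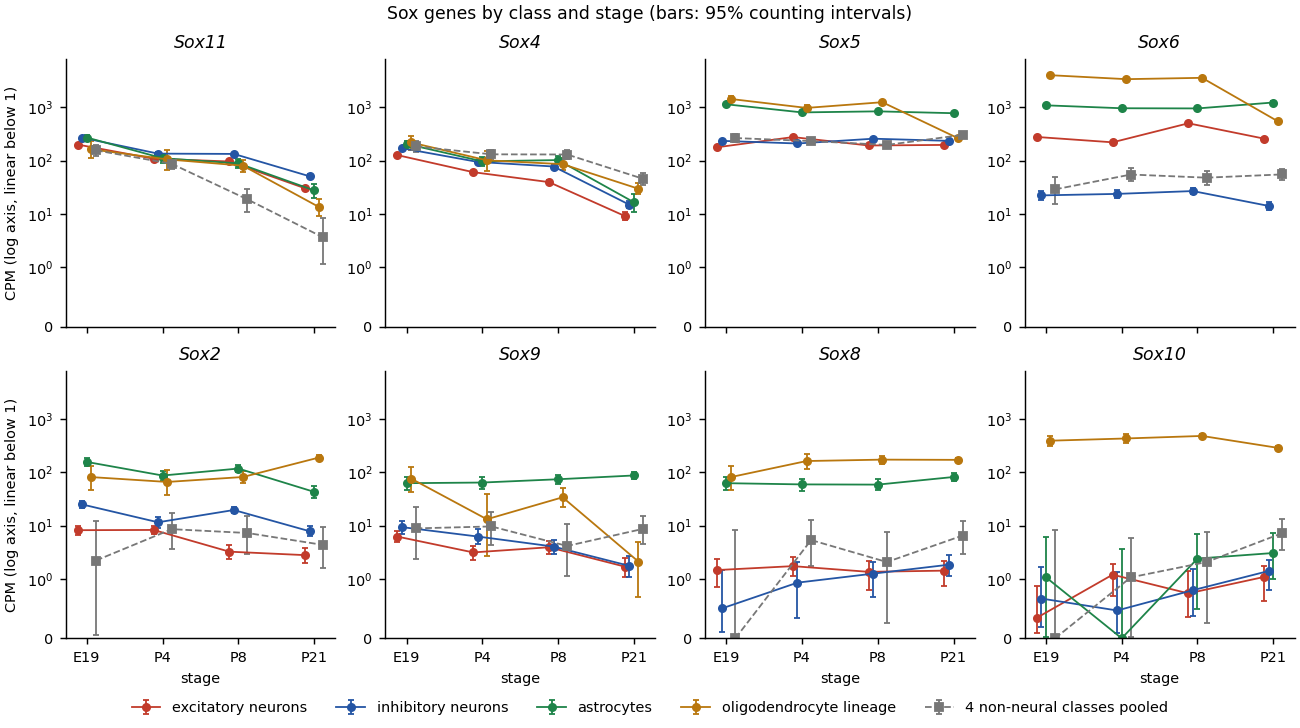
CPM of the 8 Sox genes (vertical axis, logarithmic above 1 CPM and linear below) at E19, P4, P8 and P21 in excitatory neurons, inhibitory neurons, astrocytes, the oligodendrocyte lineage and 4 non-neural classes pooled. Points are sums over nuclei of 1 library and bars are 95% counting intervals. Sox11 and Sox4 are lower at P21 than at E19 in each group shown, whereas Sox8 and Sox10 lie above 60 CPM in at least 1 glial group at all stages and below 2 CPM in neurons.

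Glia held the pair at levels like those of neurons. Astrocytes gave 271, 111, 88.7 and 27.7 CPM of Sox11 and 205, 97.0, 102 and 16.6 CPM of Sox4. Oligodendrocyte-lineage nuclei gave 163, 106, 80.4 and 13.6 CPM of Sox11 and 219, 101, 85.8 and 29.8 CPM of Sox4. In the order of classes by Sox11 within a library, 9 of 14 neighbouring pairs had overlapping intervals, so most neighbours did not differ beyond counting error. Inhibitory neurons stood above excitatory neurons at all stages, by a mean log2 ratio of 0.46 for Sox11 (range over libraries 0.30 to 0.66) and 0.60 for Sox4 (0.42 to 0.89), short of 2-fold in all 4.

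Classes outside the neural lineage were not free of these RNAs. Vascular leptomeningeal, epithelial, microglial and endothelial nuclei were pooled as a reference (75, 140, 138 and 224 nuclei by stage). Their Sox11 level was 156, 87.1, 18.8 and 3.63 CPM, or 69.7, 74.7, 16.5 and 9.24% of the level in all neurons. The neuronal gene Stmn2 moved with it, at 50.1, 58.4, 42.9 and 11.3% of its neuronal level, and Dcx was at 30.6% at E19 and 11.8% at P21. Other neuronal genes spread widely: the inhibitory transporter gene Slc32a1 was at 39.7, 39.3, 38.9 and 41.2%, Snap25 at 18.1, 27.0, 17.7 and 20.3%, and Syt1 at 5.27, 9.90, 8.62 and 9.28%. Rbfox3 was at 1.86, 11.2, 4.45 and 3.21%. At P21 the Sox11 percentage was below those of Slc32a1, Gad1, Gad2, Slc17a6 and Snap25, near that of Syt1 and above that of Rbfox3. The pooled Sox11 level was thus not far from that of neurons at E19 and P4, and well below it at P8 and P21. The part of free RNA in these values was not tested. In bulk sums like these, fewer nuclei with the RNA and less RNA per nucleus cannot be told apart, which is why shares of nuclei follow.

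Sox4 differed from Sox11 in the reference. The 4 pooled classes had 185, 131, 130 and 45.7 CPM, which was 130, 185, 229 and 391% of the neuronal level, so outside neurons Sox4 was higher than within them at all stages. In vascular leptomeningeal nuclei, the fibroblast-like cells of the brain's coverings, Sox4 was 118, 144, 123 and 53.4 CPM. From P4 to P21 there, 2 of the 4 Sox genes with at least 20 CPM were 2-fold lower (Sox4 with a log2 ratio of -1.35, interval -1.84 to -0.86, and Sox11 with -3.04, -3.84 to -2.24, on 31 and 3 UMIs) beside 11.9% of all genes. Sox5 was higher, with 177 and 324 CPM and a log2 ratio of 0.86 (0.52 to 1.19), short of 2-fold.

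Because deep nuclei show a gene more often, each nucleus was also thinned to 2300 UMIs, which left out 0 nuclei. The thinned share of excitatory nuclei with a Sox11 UMI was 35.8, 22.6, 19.6 and 7.77% in stage order, and that of inhibitory nuclei 45.2, 27.0, 24.0 and 9.73%. Without thinning the shares were 74.1, 66.6, 68.5 and 38.3% and 73.9, 61.5, 62.7 and 43.5%. In the pooled non-neural nuclei the thinned share was 30.7, 21.4, 5.80 and 1.34%. At P8 and P21 the intervals of both neuron classes lay above that of the reference, and at E19 and P4 those of both classes overlapped with it. For Sox4 the thinned share was 25.6, 14.8, 10.4 and 1.47% in excitatory and 32.4, 20.7, 16.9 and 2.70% in inhibitory nuclei, against 34.7, 25.7, 18.1 and 10.7% in the pooled nuclei. The neuronal Sox4 share was below the reference at all stages. The reference intervals at E19, P4 and P8 (24.0 to 46.5, 18.7 to 33.8 and 12.1 to 25.6%) held the inhibitory shares. At E19 the reference interval held the excitatory share too. By this measure the neuronal Sox4 share was thus not above the reference. Whether the reference classes themselves express Sox4 was not tested.

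**Figure D2:**
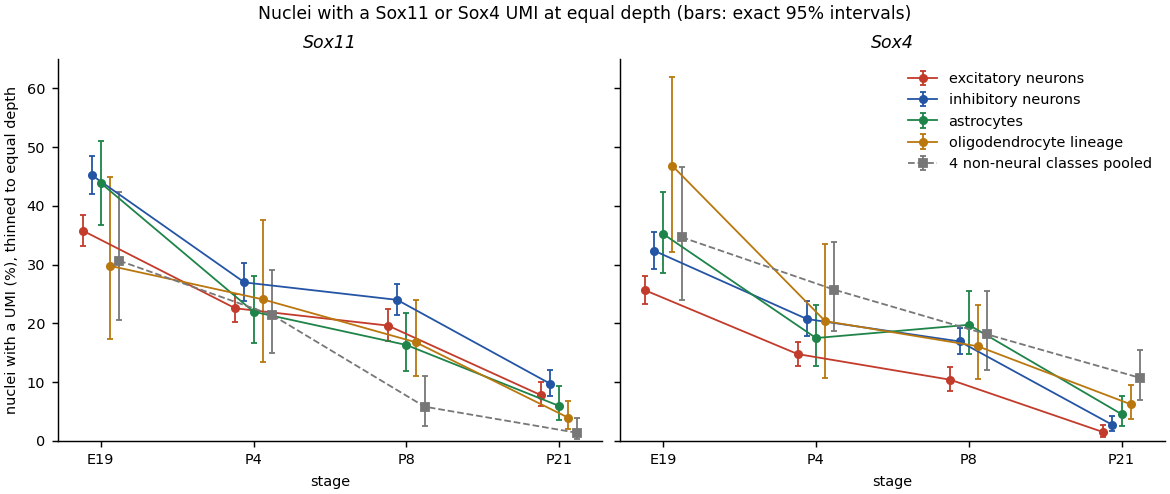
Percent of nuclei with a Sox11 (left) or Sox4 (right) UMI after thinning to an equal number of UMIs, by stage, for excitatory neurons, inhibitory neurons, astrocytes, the oligodendrocyte lineage and 4 non-neural classes pooled (grey). Bars are exact 95% intervals; for Sox11 the neuron lines leave the grey line at P8, and for Sox4 the grey line lies above both neuron lines at all stages.

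The lower SoxC level at P21 held in each neuron subtype that could be compared. Among the 23 subtypes with at least 20 nuclei at E19 and P21 (11 excitatory, 12 inhibitory), Sox11 was at least 2-fold lower in 23 and Sox4 in 23. Over all pairs of gene and subtype the share was 16.5%, and 3.05% of the 5416 genes measured in all 23 subtypes were lower in all of them. At P21 Sox4 reached 20 CPM only in IN4, IN9, IN10 and IN12, and Sox11 in all but EN10, EN13, IN8, IN11 and IN12. The subtypes below 20 CPM at P21 passed the filter through E19 alone, which favours a fall. For Sox11 the log2 ratio ran from -3.99 (EN10) to -2.15 (EN9) in excitatory subtypes, median -2.91, and from -4.12 (IN12) to -1.81 (IN9) in inhibitory subtypes, median -2.60. For Sox4 it ran from -4.42 (EN6) to -1.73 (EN13) and from -4.40 (IN7) to -2.76 (IN9).

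IN9 had the most Sox11. Its level was 461, 299, 239 and 128 CPM at the 4 stages, the highest mean over libraries of the 27 subtypes with at least 20 nuclei in all 4, and 66.1 CPM in EN9 was the highest excitatory value at P21. Even so, in the order of subtypes within a library 119 of 120 neighbouring pairs overlapped within counting error. At E19 Sox11 ran from 140 CPM in EN8 to 347 in EN6 among excitatory and from 182 in IN10 to 461 in IN9 among inhibitory subtypes. A few subtypes therefore differed from the far end of the order, and next neighbours did not.

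**Figure D3:**
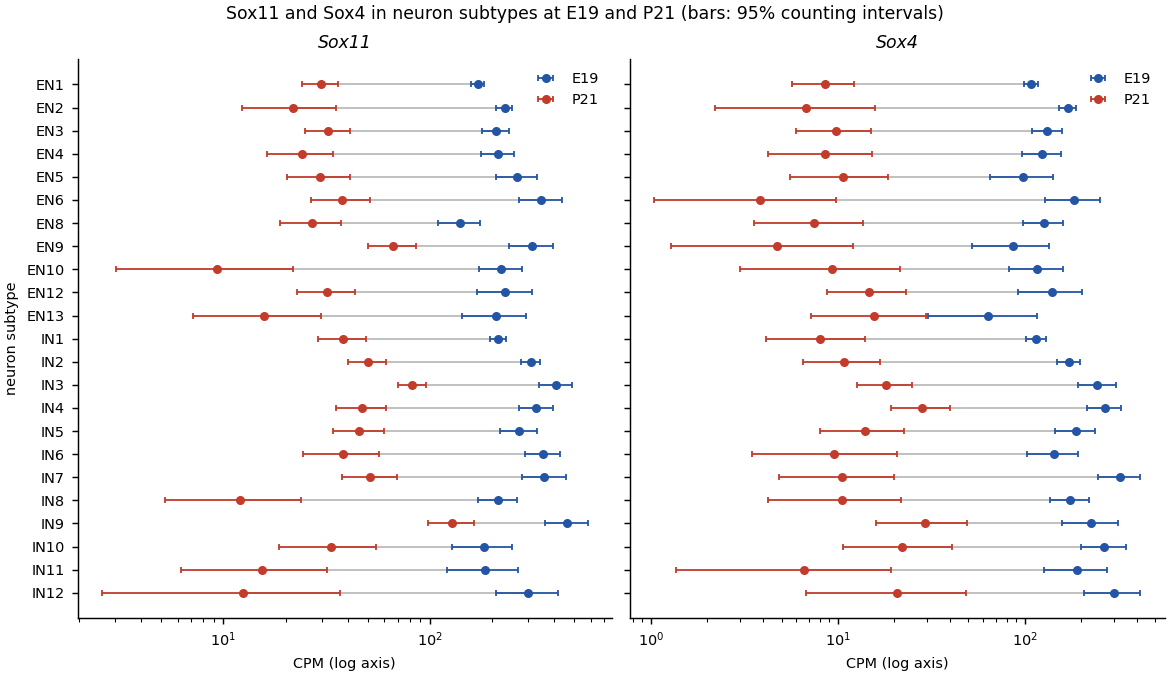
Sox11 (left) and Sox4 (right) CPM on a logarithmic axis in the 23 neuron subtypes with at least 20 nuclei at E19 and P21. Blue points are E19, red points P21 and bars 95% counting intervals; each red point lies left of its blue point and no pair of intervals overlaps.

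Sox4 and Sox11 UMIs were also counted together after thinning. Of 1338 excitatory nuclei at E19, 138 had both, 205 only Sox4, 341 only Sox11 and 654 neither. At P21 the numbers were 0, 10, 53 and 619 of 682. Thinning leaves out most UMIs, and the number expected for unrelated genes was not computed. How often a nucleus expresses the pair together is thus not shown. Other genes of immature neurons were lower as well. Of 24 listed genes (tubulins, Dcx, stathmins and the like) 18 had at least 20 CPM in excitatory neurons and 15 were at least 2-fold lower at P21 (10.7% of all genes), led by Tubb2b (log2 ratio -6.15 from 704 CPM at E19) and Tmsb10 (-4.41 from 348 CPM). The median log2 ratio of those 18 was -2.02, against -0.06 for all genes. In astrocytes 16 of 17 such genes were lower over the same span, beside 18.2% of all genes. For the other classes the span was shorter, P4 to P21: 15 of 16 were lower in the oligodendrocyte lineage beside 26.9% of all genes, and 14 of 15 in vascular leptomeningeal cells beside 11.9%. In astrocytes Stmn2 was at 66.8% of its neuronal level at E19 and 15.9% at P21, and Dcx at 41.4 and 9.40%. Syt1, not on this list, was at 9.20 and 9.37%. The part of free RNA in the values outside neurons was not tested. Sox12, the remaining SoxC gene, had 27.9 and 8.56 CPM in excitatory neurons and 28.1 and 6.77 CPM in astrocytes at E19 and P21.

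The SoxD genes behaved unlike the SoxC pair: they differed mainly between subtypes and classes, and less between E19 and P21. Sox5 was 178, 276, 192 and 197 CPM in excitatory and 235, 209, 258 and 235 CPM in inhibitory neurons. Its E19 to P21 log2 ratios were 0.14 (0.06 to 0.22) and 0.00 (-0.09 to 0.09), the second -0.63 with subtypes weighted alike. The pooled non-neural nuclei had 265, 232, 197 and 304 CPM of Sox5. Only the excitatory level at P4 and the inhibitory level at P8 lay above that reference. Whether the reference classes themselves express Sox5 was not tested. Sox6 was 278, 220, 501 and 258 CPM in excitatory neurons but 22.3, 23.8, 26.9 and 14.2 CPM in inhibitory neurons. The E19 to P21 log2 ratio of Sox6 in excitatory neurons was -0.10 (-0.17 to -0.04), or -0.82 with subtypes weighted alike. That contrast was the clearest between the neuron classes: the log2 ratio of inhibitory over excitatory was -3.53 as a mean over libraries (range -3.99 to -2.97). Sox6 was the only 1 of 5 Sox genes at least 2-fold lower in inhibitory neurons in all 4 libraries, beside 0.512% of all genes. The pooled non-neural nuclei had 28.9, 54.9, 47.9 and 55.2 CPM of Sox6, above the inhibitory level in each library. At E19 the intervals overlapped (15.4 to 49.5 CPM in the pool and 18.7 to 26.4 CPM in inhibitory neurons). The Sox6 level of inhibitory neurons was thus not above this reference. Whether the reference classes themselves express Sox6 was not tested.

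The Sox6 level of excitatory neurons was highest in EN9. There it stood at 2724 CPM (2510 to 2952) at E19, 2036 at P4, 2210 at P8 and 1254 (1179 to 1331) at P21. After thinning, 86.7, 90.3, 92.3 and 88.9% of EN9 nuclei had a Sox6 UMI. EN9 supplied 18.6, 16.9, 36.8 and 28.2% of all excitatory Sox6 UMIs with 2.24, 2.57, 9.0 and 6.60% of the excitatory nuclei. By level EN9 thus lay above the other neuron subtypes in all 4 libraries. EN1, with more nuclei, held more Sox6 UMIs than EN9 at E19 (1404, against 596), at P4 and at P21 (1140, against 1062).

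Below EN9 came EN4 with 669, 556, 621 and 370 CPM, EN5 with 700, 396, 665 and 285 CPM, and EN1 with 278, 287, 660 and 334 CPM. EN8 was at the low end with 11.4, 10.1, 9.22 and 20.1 CPM. The excitatory level at P8, at 501 CPM, was past 2-fold above that at P4 (log2 ratio 1.17), and at P8 EN9 made up 9.0% of excitatory nuclei against 2.57% at P4, while EN1 went from 287 to 660 CPM. Whether the makeup of the dissected tissue differed between these libraries was not tested. In the order of subtypes 97 of 120 neighbouring pairs overlapped within counting error, fewer than for any other of the 8 genes.

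Sox5 marked other neurons. EN12 had 459, 316, 476 and 833 CPM and EN3 had 321, 302, 363 and 386 CPM, whereas EN4 had 35.5, 28.2, 10.5 and 6.19 CPM and EN5 66.2, 22.2, 7.93 and 7.12 CPM. Among inhibitory subtypes IN9 had 968, 526, 391 and 289 CPM, IN5 had 671, 478, 430 and 476 CPM and IN3 had 344, 442, 617 and 520 CPM. IN6 stayed between 12.7 and 28.4 CPM. EN4 and EN5, among the higher subtypes for Sox6, were among the lowest for Sox5.

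One subtype carried much of the P4 level. EN7 had 41.8 CPM of Sox5 at E19 (33 nuclei) and 629 CPM (600 to 660) at P4 (191 nuclei), where it held 42.5% of all excitatory Sox5 UMIs in 15.8% of the nuclei. It had 1 nucleus at P8 and 1 at P21, so it could not be followed. The EN7 level at P4 was uneven between nuclei: after thinning 128 had no Sox5 UMI, 43 had 1 to 4 and 20 had 5 or more.

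**Figure D4:**
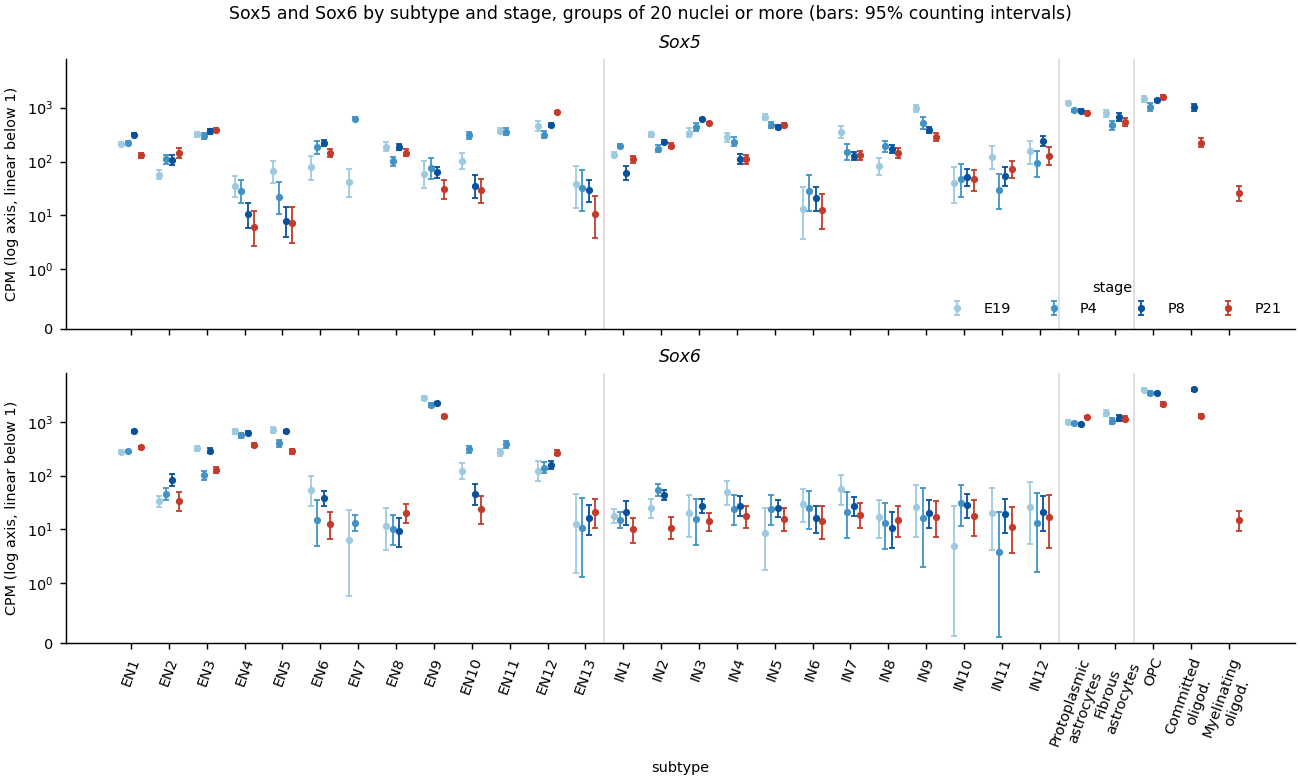
Sox5 (top) and Sox6 (bottom) CPM, logarithmic above 1 CPM, in neuron, astrocyte and oligodendrocyte-lineage subtypes with at least 20 nuclei in a library. Colours are stages and bars 95% counting intervals; Sox6 separates EN9 from the other neuron subtypes and lies below 60 CPM in inhibitory subtypes, while Sox5 is spread over both neuron classes.

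Within the 23 neuron subtypes the age differences of the SoxD genes went both ways. Sox5 was at least 2-fold lower at P21 in 7 and higher in 1 of 22 measured at 20 CPM or more, from -2.55 in EN5 to 1.27 (0.92 to 1.62) in EN2. Sox6 was lower in 7 and higher in 1 of 18, from -2.14 in EN10 to 1.07 (0.50 to 1.65) in EN12. Over all pairs of gene and subtype 16.5% were lower and 11.4% higher. Some counted falls passed the filter through E19 alone, which favours a fall. These were Sox5 in EN4, EN5 and EN13 (6.19, 7.12 and 10.4 CPM at P21) and Sox6 in EN6, IN4 and IN7 (12.4, 17.6 and 18.7 CPM). The EN2 and EN12 values rested on few nuclei: 1 EN2 nucleus held 44 of 107 Sox5 UMIs and 1 EN12 nucleus 67 of 326 Sox6 UMIs at P21.

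Both SoxD genes were far higher in glia. In astrocytes Sox5 was 1137, 801, 839 and 774 CPM and Sox6 1087, 959, 951 and 1228 CPM. In OPCs Sox5 was 1469, 1034, 1366 and 1566 CPM and Sox6 3929, 3447, 3427 and 2150 CPM. Among the 27 subtypes with at least 20 nuclei in all 4 libraries, OPCs were the highest for both genes by the mean over libraries. Nearly all OPC nuclei carried both: after thinning, 95.7, 88.1, 93.6 and 98.4% had a UMI of each. In EN9 the same share was 13.3, 9.68, 8.97 and 4.44%. Endothelial cells also had Sox5, at 775, 541, 623 and 1166 CPM in 12 to 22 nuclei a library.

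Both were far lower in myelinating nuclei. At P21 Sox5 was 1566 CPM in OPCs, 224 in committed oligodendrocytes (the intermediate stage) and 25.5 in myelinating oligodendrocytes, and Sox6 was 2150, 1276 and 14.7 CPM. The log2 ratio of myelinating over OPC was -5.69 (-6.08 to -5.29) for Sox5 and -6.78 (-7.23 to -6.32) for Sox6. These were 2 of 4 Sox genes at least 2-fold lower, of 7 measured, beside 24.9% of all genes; Sox4 (33.4 and 3.19 CPM) and Sox11 (63.4 and 1.91 CPM, on 19 and 3 UMIs) were the others.

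Committed nuclei at P21 were mixed. Of 55, after thinning 23 had no Sox6 UMI, 13 had 1 to 4 and 19 had 5 or more, while each of the 64 OPC nuclei had at least 1. In these 55 nuclei Sox5 and Sox6 were found together in 16, Sox6 alone in 16, Sox5 alone in 1 and neither in 22.

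At class level the oligodendrocyte lineage combined such differences with a change of makeup. OPCs were 97.9, 77.8, 76.2 and 20.9% of its nuclei and myelinating oligodendrocytes were 0 of 47, 0 of 54, 1 of 143 and 187 of 306 nuclei, or 61.1% at P21; the exact 95% upper limits of the 2 zero shares are 7.55 and 6.60%. Between P4 and P21, 4 of 7 Sox genes were at least 2-fold lower beside 26.9% of all genes: Sox6 with a log2 ratio of -2.61, Sox11 with -2.57, Sox5 with -1.87 and Sox4 with -1.61. With the subtypes present at both stages weighted alike these became -0.94, -1.36, -0.03 and -0.83, so only Sox11 stayed past 2-fold. Sox2 was the 1 of 7 that was at least 2-fold higher, beside 12.4% of all genes, and it too dropped below 2-fold in that weighting. Within OPCs Sox6 was lower from E19 to P21 by a log2 ratio of -0.87 (-1.02 to -0.72) and Sox5 differed by 0.09 (-0.12 to 0.30).

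Sox2 was a gene of glia and of dividing cells, and low in most neurons. Astrocytes had 157, 87.1, 118 and 43.1 CPM and the P21 level was below the others, with an E19 to P21 log2 ratio of -1.75 (-2.13 to -1.37). Of the 7 Sox genes measured in astrocytes, 3 were at least 2-fold lower at P21 (Sox2, Sox4 and Sox11) beside 18.2% of all genes. Sox11 had a log2 ratio of -3.08 (-3.48 to -2.68) there and Sox4 of -3.28 (-3.75 to -2.82). Sox4, at 16.6 CPM in astrocytes at P21, passed the filter through E19 alone. Dividing nuclei, few in number, had 146, 108, 73.8 and 66.6 CPM of Sox2.

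The oligodendrocyte lineage went the other way. Its Sox2 level was 81.4, 66.0, 81.8 and 189 CPM, with a P4 to P21 log2 ratio of 1.45 (0.76 to 2.14). OPCs were at 83.9, 65.4, 70.3 and 33.4 CPM, so the higher class level was not theirs. At P21 committed oligodendrocytes had 226 CPM (186 to 273) and myelinating oligodendrocytes 207 CPM (185 to 231), and the myelinating level exceeded that of OPCs by a log2 ratio of 2.46 (1.67 to 3.26). Sox2 was the 1 of 7 Sox genes that was at least 2-fold higher in myelinating nuclei, beside 15.0% of all genes. In annotation Sox2 (chr3:34650405-34652461, plus strand, 1 exon) lies inside the long noncoding gene Sox2ot on the same strand, which is no row of the matrix. Reads from the 2 transcripts over these bases could not be told apart.

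Among P21 committed nuclei after thinning, 11 had both Sox2 and Sox6 UMIs, 15 Sox2 alone, 21 Sox6 alone and 8 neither. The thinned share of nuclei with a Sox2 UMI was 4.69% in OPCs, 47.3% in committed and 32.1% in myelinating oligodendrocytes at P21, against 2.23% in the pooled non-neural nuclei.

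Neurons held little Sox2. Excitatory neurons had 8.24, 8.32, 3.26 and 2.81 CPM and inhibitory neurons 25.0, 11.6, 19.7 and 7.87 CPM, while the pooled non-neural nuclei had 2.23, 8.61, 7.29 and 4.36 CPM. The excitatory level was therefore near that of this reference, and the inhibitory level was above the reference at E19 and P8. IN7 had 57.2, 42.0, 44.1 and 23.4 CPM and IN5 had 70.2, 21.9, 38.7 and 15.7 CPM, the first and second of the inhibitory subtypes by mean level. Of 12 inhibitory subtypes 7 had at least 20 CPM of Sox2 and 7 were at least 2-fold lower at P21, beside the 16.5% of all pairs of gene and subtype. Of these only IN7 and IN12 also had 20 CPM at P21. The others passed the filter through E19 alone, which favours a fall. UMIs were few (6 and 0 in IN11), and the IN12 interval spanned 0 (-2.59 to 0.34). EN7 was the highest excitatory subtype with 45.0 and 22.7 CPM at E19 and P4 and held 50.8% of excitatory Sox2 UMIs at P4. Neuronal nuclei with a Sox2 UMI carried a thinned UMI of an astrocyte marker in 29.5% of cases (26.1 to 33.1), and those without in 26.6% (25.6 to 27.7).

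Sox9 followed the astrocytes. Its level there was 62.6, 64.4, 74.2 and 87.3 CPM, with an E19 to P21 log2 ratio of 0.45 (0.04 to 0.86). Fibrous astrocytes had 110, 66.5, 63.6 and 110 CPM and protoplasmic astrocytes 50.3, 63.8, 76.5 and 83.6 CPM; at E19 the protoplasmic level was lower by a log2 ratio of -1.06 (-1.79 to -0.33). In OPCs Sox9 was 68.2, 17.8, 42.9 and 3.34 CPM, the last on 1 UMI, and in myelinating oligodendrocytes 1.91 CPM on 3 UMIs. Sox9 thus differed little between stages in astrocytes, while its OPC level at P21 was at the limit of detection. Excitatory neurons had 6.24, 3.16, 3.94 and 1.71 CPM and inhibitory neurons 9.39, 6.26, 4.06 and 1.77 CPM, near or below the 8.90, 9.68, 4.17 and 8.71 CPM of the pooled non-neural nuclei. Sox9 (chr11:112782224-112787760, plus strand, 3 exons) overlaps no other annotated gene.

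Sox8 was shared by astrocytes, the oligodendrocyte lineage and dividing nuclei. Dividing nuclei had 104, 146, 86.8 and 0 CPM, the last in 10 nuclei. They stood above astrocytes up to P8, with intervals apart at P4 only. Astrocytes had 62.6, 59.4, 58.9 and 81.8 CPM and the oligodendrocyte lineage 81.4, 163, 173 and 171 CPM. OPCs had 73.4, 107, 121 and 214 CPM, with an E19 to P21 log2 ratio of 1.48 (0.69 to 2.27). At P21 committed and myelinating oligodendrocytes had 144 and 172 CPM, and myelinating nuclei differed from OPCs by -0.31 (-0.69 to 0.08), within counting error.

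Astrocyte subtypes did not share Sox8 alike. Protoplasmic astrocytes had 69.3, 74.0, 65.7 and 92.2 CPM and fibrous astrocytes 36.7, 8.86, 27.2 and 17.6 CPM, on 7, 2, 6 and 4 UMIs. The log2 ratio of protoplasmic over fibrous was 0.83, 2.51, 1.13 and 2.10, past 2-fold in 3 of 4 libraries and short of it at E19. None of the 8 Sox genes was at least 2-fold higher in all 4, beside 0.742% of all genes.

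Sox10 was high in the oligodendrocyte lineage and in dividing nuclei. The lineage had 392, 431, 481 and 288 CPM and dividing nuclei 127, 223, 282 and 266 CPM. OPCs had 357, 422, 396 and 240 CPM, committed oligodendrocytes 690 and 455 CPM at P8 and P21, and myelinating oligodendrocytes 245 CPM at P21. The myelinating level differed from that of OPCs by a log2 ratio of 0.03 (-0.33 to 0.38). Committed nuclei therefore had the highest Sox10 level of the 3 lineage subtypes at P21, with an interval (397 to 519 CPM) above both others.

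Other classes held little of it. Neurons had between 0.35 and 1.42 CPM and astrocytes 1.08, 0, 2.42 and 3.08 CPM, where 0 of 223 P4 nuclei had a UMI and 3 UMIs would be 2.97 CPM. The pooled non-neural nuclei had 0, 1.08, 2.08 and 7.26 CPM, with 6 of the 10 UMIs at P21 in 12 endothelial nuclei (81.3 CPM). The 5 myelin markers summed to 1112 CPM in those nuclei, and their part in this value was not tested. A single nucleus held 11 of the 18 Sox10 UMIs of excitatory neurons at P4. Of 63 neurons with a Sox10 UMI, 27.0% (16.6 to 39.7) had a thinned UMI of a myelin marker, against 19.7% (18.8 to 20.6) of the 7489 without. Sox10 lies at chr15:79154908-79165240 and Sox8 at chr17:25565892-25570686, both on the minus strand; 2810468N07Rik, not in the matrix, overlaps Sox8 on the opposite strand.

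**Figure D5:**
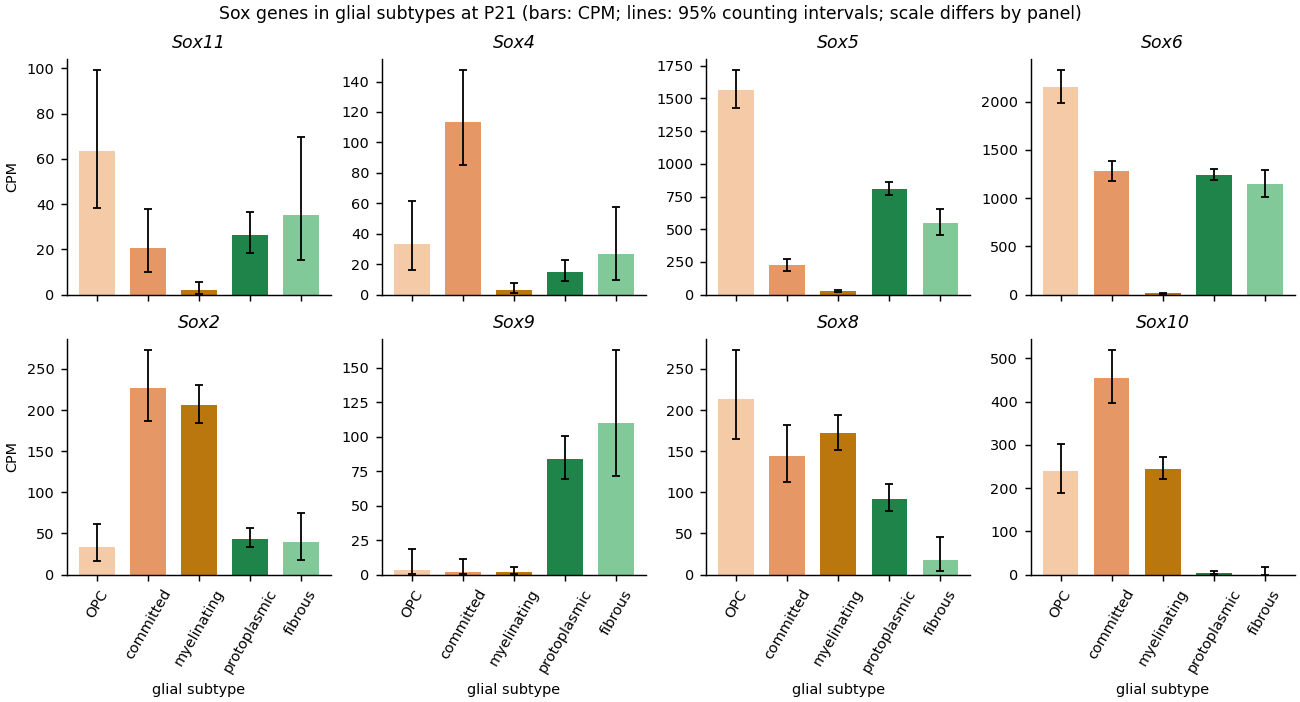
CPM of the 8 Sox genes in OPCs, committed and myelinating oligodendrocytes (orange to brown) and in protoplasmic and fibrous astrocytes (greens) at P21. Bars are sums over nuclei of the P21 library, lines are 95% counting intervals and the vertical scale differs by panel; Sox5 and Sox6 are near 0 in myelinating nuclei, where Sox2 stands at 207 and Sox10 at 245 CPM.

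Against excitatory neurons of the same library, the glial classes were set apart by different members. In astrocytes 4 of 7 Sox genes were at least 2-fold higher in all 4 libraries, beside 9.10% of all genes: Sox8 (mean log2 ratio 3.43, range 3.26 to 3.75), Sox2 (3.23, 2.62 to 3.89), Sox9 (3.15, 2.59 to 3.78) and Sox5 (2.05, 1.52 to 2.64). Sox6 missed 2-fold at P8, with 0.92. In the oligodendrocyte lineage 4 of 8 were higher in all 3 libraries with at least 50 nuclei, beside 5.10% of all genes: Sox10 (6.04, 5.59 to 6.40), Sox8 (4.74, 4.64 to 4.81), Sox2 (3.48, 2.41 to 4.63) and Sox6 (2.60, 1.07 to 3.90). Sox4 and Sox11 were in neither set. Sox2, Sox8, Sox9 and Sox10 were at most 8.32 CPM in excitatory neurons at any stage. They passed the 20 CPM filter through the glial side alone and could only be counted as higher. Sox5 and Sox6 reached 20 CPM on both sides.

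Lists of related genes gave the surroundings. Of 19 progenitor and radial glia genes, 17 were measured in the astrocyte comparison and 16 were at least 2-fold higher than in excitatory neurons in all 4 libraries, beside 9.10% of all genes. Within astrocytes 7 of 17 were lower at P21, beside 18.2% of all genes, among them Tnc (2727 to 206 CPM), an extracellular matrix protein, and Fabp7 (869 to 67.7 CPM), a fatty acid carrier of radial glia. Of 18 astrocyte genes 13 were higher at P21 (738 of all 8577 genes were) and 1 lower, with Gfap, the intermediate filament of mature astrocytes, at 3.24 and 285 CPM. Between P4 and P21 in the oligodendrocyte lineage, 10 of 24 listed lineage genes were higher, beside 12.4% of all genes, and 6 were lower, a share near the 26.9% of all genes: the myelin gene Mog went from 4.40 to 1573 CPM and the OPC receptor gene Pdgfra from 621 to 99.9 CPM.

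Over 68 groups of subtype and library with at least 50 nuclei, 5128 genes were ranked by Pearson's r of their log2 levels with each member. The groups share libraries and depth, so r is a description with no p. Sox10 was closest to Mroh3 (0.96), Bcas1 (0.93) and Atp10b (0.92), and Sox8 to Nkx2-2os (0.92), Olig2 (0.89) and Gm16168 (0.89). Sox4 was closest to Marcks (0.93), Rpsa (0.92) and Eef1a1 (0.92), and Sox11 to Basp1 (0.91), Apc2 (0.89) and Samd14 (0.88). Sox9 was closest to Aldh1l1 (0.86), Frem2 (0.86) and Ednrb (0.85), and Sox2 to Rab31 (0.76), Cmtm5 (0.73) and Zfp280c (0.73). The SoxD genes had the loosest partners: Sox6 had 1110004F10Rik (0.75), Ptprz1 (0.68) and Nek7 (0.67), and Sox5 had Gm4876 (0.59), Tex9 (0.56) and Xpo1 (0.55). Between members r was 0.75 for Sox8 with Sox10, 0.72 for Sox4 with Sox11 and 0.15 for Sox5 with Sox6.

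Sox5 (chr6:143828425-144781977) and Sox6 (chr7:115470872-116038796), both on the minus strand with 25 merged exons, span 953553 and 567925 bases. Since the authors counted against a pre-mRNA reference, intronic reads entered these totals. Antisense genes lie within both spans, the largest by UMIs being Sox5os4 with 690 and Gm45025 with 375, against 27680 UMIs of Sox5 and 29778 of Sox6.

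The other 11 Sox genes were low. Their highest class levels at any stage were 67.6 CPM for Sox13 in vascular leptomeningeal cells at P21, 52.2 CPM for Sox14 in inhibitory neurons at P8, 32.9 CPM for Sox12 in inhibitory neurons at E19 and 31.4 CPM for Sox1 in astrocytes at P21. The remaining 7 stayed below 20 CPM in each class with at least 50 nuclei, the highest being Sox21 with 19.4 CPM in astrocytes at E19.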

How the data were processed

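Nuclei were captured with 10x Genomics 3′ v3 chemistry. Per the labels and the submitters' processing notes, the authors aligned reads with Cell Ranger 3.0.2 to an mm10 reference of unspliced transcripts (pre-mRNA), so intronic reads count. The deposited matrix holds raw UMI counts per gene and nucleus, and stage, class and subtype came from the deposited annotation. How nuclei were filtered and doublets removed, and whether strand was used, are not given in the sources used here. No nuclei were filtered further, and no doublet caller was run. The number of per-sample columns left unused was 0.

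UMIs were summed by library and class (at least 50 nuclei for comparisons) or subtype (at least 20) with Python 3.11.15, numpy 2.4.6, scipy 1.17.1 and pandas 2.3.3, and plotted with matplotlib 3.10.9. CPM intervals were exact Poisson and shares exact Clopper-Pearson. The counting was tested on simulated data. The 8 members, all of them named, and the gene lists were chosen with earlier results of these data known. From each list the 2 largest changes in each direction could be named, and the 3 genes closest to each member by r among genes reaching 100 CPM. Alternatives were 1 and 20 CPM added, median-of-ratios scaling, other weightings, thinning, deep nuclei left out and other level filters.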

Additional observations from a re-analysis of the deposited data

Results flagged for a closer look

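Between P4 and P21 some Sox genes differed in opposite directions in different classes, and the difference between classes was not tested. The log2 ratio of Sox2 was 1.45 in the oligodendrocyte lineage and -0.94 in astrocytes. For Sox5 it was 0.86 in vascular leptomeningeal cells and -1.87 in the oligodendrocyte lineage, and for Sox6 0.36 in astrocytes and -2.61 in the oligodendrocyte lineage. Between E19 and P21 the same held for neuron subtypes: Sox5 had 1.27 in EN2 and -2.55 in EN5, and Sox6 had 1.07 in EN12 and -2.14 in EN10. The EN2 and EN12 values were the only counted rises of these genes, rested on few nuclei, and more subtypes were lower. The Sox5 rise was not counted with nuclei weighted alike, nor the Sox6 rise with 20 CPM added. The EN5 value of Sox5 passed the level filter through E19 alone (66.2 CPM, against 7.12 CPM at P21). Each value compares 2 libraries.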

How the results depend on the processing

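Of 294 counts of genes or subtypes recomputed under the alternatives, 278 moved by less than 1.5 times and 16 by more, and of 653 single ratios 551 moved by less than their counting error and 102 by more. No called ratio changed sign. With subtypes weighted alike, the count of Sox genes between P4 and P21 in the oligodendrocyte lineage fell from 4 to 1 lower and from 1 to 0 higher. In vascular leptomeningeal cells the count of higher genes went from 0 to 1 with thinning (Sox6) and to 1 without the top 5% of nuclei by UMIs (Sox5), and that of lower genes from 2 to 1 with a 100 CPM filter and to 4 with no filter. The 100 CPM filter, which tests fewer genes, left 2 higher genes in astrocytes against excitatory neurons and 2 lower in myelinating oligodendrocytes against OPCs. The contrasts of glial subtypes were chosen after the data were seen. There, thinning gave 1 gene (Sox8) higher in protoplasmic astrocytes. Over neuron subtypes the count of 1 higher for Sox5 became 0 with nuclei weighted alike and 2 with thinning, and for Sox6 it became 0 with 20 CPM added, 3 with thinning and 2 with no filter. With the 100 CPM filter the count of lower subtypes became 4 for Sox5 and 4 for Sox6. The cause was not tested otherwise. Median-of-ratios scaling moved all genes by 0.11 at both E19 and P8 in astrocytes against excitatory neurons and by less elsewhere. No paired analysis was possible because each stage has 1 library. Depth limits Sox8, Sox9 and Sox10 in neurons, which were at a few CPM.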
